A study of Homo sapiens with 20 samples.

Results

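ATP1B1, CEMIP2, FGD6, TUFT1 and PAG1 are 5 genes whose rise with an inhibitor of BET proteins after 8 h was far larger in the myeloma line LP-1 than in the Burkitt lymphoma line Raji. They are 5 of 14232 human genes measured by a probe set with 1 gene symbol on 20 exon arrays, and each was read from its single such probe set. They were picked for their 8 h values in both lines, so those values are given as a description with no test. The 5 genes were tested on differences among the untreated and 4 h groups, which the rule did not use, with the spread estimated over all 20 arrays, the 8 h arrays included. On the 12 arrays at 0 and 4 h alone FGD6 lost its call in LP-1 and ATP1B1 lost its call in Raji. Related and neighbouring genes were tested at 8 h too. The rule says that the rise was far larger in LP-1, but ATP1B1 also rose in Raji at 4 h, so its rise is not confined to LP-1.

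LP-1 was established from multiple myeloma, in which plasma cells grow as a tumour, and Raji from Burkitt lymphoma, a tumour of B cells. LP-1 was grown in IMDM and Raji in RPMI medium, both with fetal bovine serum, so medium and line cannot be told apart. Untreated cells of each line were taken at 0 h, and treated cells were taken 4 or 8 h after 500 nM of the active BET inhibitor or of the inactive enantiomer, a mirror image of that molecule. There were thus 5 groups per line and 10 in all, each of 2 biological replicates per the series' design text. The compound is not named in the labels, and no untreated cells were taken at 4 or 8 h, so a comparison with untreated cells joins compound and time in culture.

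BET proteins bind acetylated histones and recruit factors that release paused RNA polymerase II, and their inhibitors lower some genes and raise others. The 5 genes do not form a pathway. ATP1B1 encodes the beta subunit of the sodium pump, which helps the catalytic alpha subunit fold and reach the cell surface. CEMIP2 (formerly TMEM2) encodes a membrane protein linked to the breakdown of hyaluronan, a polysaccharide of the extracellular matrix. FGD6 encodes a member of the FGD family of exchange factors that activate the GTPase CDC42, a regulator of the actin cytoskeleton. TUFT1 encodes tuftelin, a protein first described in tooth enamel and also made in other tissues. PAG1 encodes a membrane adaptor that recruits the kinase CSK, which restrains kinases of the SRC family such as LYN in lymphocytes.

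The promoters are shown because the 5 genes rose together in LP-1 from different chromosomes or from distant places on 1 chromosome. Windows were taken from RefSeq's promoter table (GRCh38.p14) for 4 of the 5 genes, and none was taken for PAG1. Each line gives the 250 bases before the first start listed for the gene, 5′ to 3′ on the gene's strand. Any further starts were not read. The windows are chr1:169106440-169106689 (+) for ATP1B1, chr9:71768514-71768763 (-) for CEMIP2, chr12:95217468-95217717 (-) for FGD6 and chr1:151540059-151540308 (+) for TUFT1. Capitals mark matches to the GC box GGGCGG or the CCAAT box CCAAT on either strand.
ATP1B1: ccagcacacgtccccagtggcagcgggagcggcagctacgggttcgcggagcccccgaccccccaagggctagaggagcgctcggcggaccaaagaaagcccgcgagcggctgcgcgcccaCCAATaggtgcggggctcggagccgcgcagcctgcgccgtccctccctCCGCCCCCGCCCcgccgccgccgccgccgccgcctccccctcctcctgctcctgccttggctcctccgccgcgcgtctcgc
CEMIP2: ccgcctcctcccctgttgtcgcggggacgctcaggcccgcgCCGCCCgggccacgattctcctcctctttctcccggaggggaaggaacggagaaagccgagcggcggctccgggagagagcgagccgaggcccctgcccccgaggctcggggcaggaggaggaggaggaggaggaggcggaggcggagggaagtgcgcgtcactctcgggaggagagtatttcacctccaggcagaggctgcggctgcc
FGD6: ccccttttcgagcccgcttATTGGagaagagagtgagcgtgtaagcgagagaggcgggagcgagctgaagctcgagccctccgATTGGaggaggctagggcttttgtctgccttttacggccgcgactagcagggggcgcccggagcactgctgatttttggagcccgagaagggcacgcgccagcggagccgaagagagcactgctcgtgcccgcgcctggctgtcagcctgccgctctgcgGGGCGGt
TUFT1: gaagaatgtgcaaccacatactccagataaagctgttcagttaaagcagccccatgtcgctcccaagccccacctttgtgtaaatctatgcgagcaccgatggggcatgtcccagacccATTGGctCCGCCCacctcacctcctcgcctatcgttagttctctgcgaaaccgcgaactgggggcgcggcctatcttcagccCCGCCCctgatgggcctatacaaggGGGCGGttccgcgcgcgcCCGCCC
All 4 windows held at least 1 GC box, a motif found in 42.6% of 35114 promoter windows of the same length. ATP1B1, FGD6 and TUFT1 also held a CCAAT box, found in 32% of windows, and CEMIP2 did not. No matches overlapped. The E-box CACGTG (6.35% of windows), the AP-1 element TGANTCA (6.57%), the cyclic AMP response element TGACGTCA (1.65%), the TATA box TATAAA (10.7%) and the interferon response element, GAAA repeated after any 2 bases (3.02%), had no match in the 4 windows on either strand. The windows were rich in G and C, at 77.6% in ATP1B1, 71.6% in CEMIP2, 65.2% in FGD6 and 60.4% in TUFT1, against a median of 58% over all windows. These matches describe the letters and are not evidence of a bound factor.

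Values below are log2 expression as deposited, and a difference of 1 is a doubling. Array medians lay between 5.132 and 5.395, and Pearson's r between the arrays of a group, across probe sets, was 0.973 to 0.989. The mean of 8 measured plasma cell markers (SDC1, IRF4, PRDM1, XBP1, TNFRSF17, CD38, SLAMF7 and MZB1) was 7.99 to 9.05 on LP-1 arrays and 5.58 to 6.31 on Raji arrays, and that of 9 B cell markers was 4.33 to 4.68 and 7.42 to 8.48. Of the plasma cell markers, CD38 went the other way and was lower in untreated LP-1 than in untreated Raji (log2 -0.55, limma adjusted p = 0.024). Both marker means were lower under the inhibitor in the line that carries them: the plasma cell mean on LP-1 arrays was 7.99 to 8.39 with inhibitor and 8.54 to 9.05 without, and the B cell mean on Raji arrays 7.42 to 7.86 and 8.12 to 8.48. The plasma cell mean was lower on Raji arrays too, at 5.58 to 5.83 with inhibitor and 6.06 to 6.31 without. On LP-1 arrays the B cell mean overlapped, at 4.33 to 4.63 and 4.49 to 4.68. Between inhibitor and inactive enantiomer at 8 h, 2 of 8 plasma cell markers fell in LP-1 (TNFRSF17 and SLAMF7), where 1.97% of all probe sets were called lower. In Raji 3 of 9 B cell markers fell (PAX5, BLNK and BANK1), where 1.05% of all probe sets were called lower. The plasma cell markers PRDM1, TNFRSF17 and SLAMF7 fell in Raji as well. The part of these shifts in the responses of the 5 genes was not tested. Lists of T and NK cell (13 genes), myeloid (8), epithelial and fibroblast (11) and erythroid markers (3) had means between 3.53 and 4.41 on all arrays. Within the T and NK cell list, TRAT1 was higher in untreated LP-1 than in untreated Raji (log2 2.44 ± 0.22, limma adjusted p = 2.18e-06). MYC, lowered by BET inhibitors in many blood cancer lines, fell at 4 h by 2.30 ± 0.16 in LP-1 (log2 change ± SE) and by 1.40 ± 0.16 in Raji cells, which therefore also responded to the compound. HEXIM1, the other gene used as a check of the inhibitor, rose at 4 h by 1.04 ± 0.14 in LP-1 and by 1.93 ± 0.14 in Raji. The larger change was thus in LP-1 for MYC and in Raji for HEXIM1. A change is called at an adjusted p under 0.05 in limma over all 22011 probe sets.

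ATP1B1 started at overlapping levels in both lines. In LP-1 it read 5.33 and 5.06 untreated, 5.09 and 5.14 with the inactive enantiomer at 4 h, and 4.48 and 4.82 with it at 8 h. With the inhibitor it read 7.09 and 7.32 at 4 h and 7.70 and 7.93 at 8 h. All 4 inhibitor arrays lay above the 6 other LP-1 arrays. In Raji the 6 arrays without inhibitor read 4.68 to 5.17 with a median of 4.92. The inhibitor arrays read 5.85 and 6.50 at 4 h and 5.76 and 5.77 at 8 h, again all above the 6 others. ATP1B1 thus read higher on the inhibitor arrays of both lines, and its highest Raji array stayed below its lowest LP-1 inhibitor array. Such separations of 4 arrays from 6, here and for the genes below, include the 8 h arrays used for the choice. No share over all probe sets was taken for them, and they are a description.

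CEMIP2 was present at a higher level in LP-1 from the start. LP-1 arrays read 6.04 and 5.78 untreated, 5.94 and 5.89 with the inactive enantiomer at 4 h, and 5.12 and 5.09 with it at 8 h. The inhibitor brought 6.81 and 7.33 at 4 h and 8.25 and 7.90 at 8 h. The inactive enantiomer arrays at 8 h were thus the lowest in LP-1, below both untreated arrays. In Raji the 6 arrays without inhibitor read 3.68 to 3.98 (median 3.82), and the inhibitor arrays read 4.32 and 4.57 at 4 h and 4.09 and 4.60 at 8 h. The Raji groups with and without inhibitor did not overlap, but every Raji array lay below every LP-1 array.

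TUFT1 followed the same layout. In LP-1 it read 4.65 and 4.83 untreated and 5.32 and 5.30 with the inactive enantiomer at 4 h, and 4.15 and 4.35 with it at 8 h. Inhibitor arrays read 6.45 and 6.99 at 4 h and 6.67 and 7.04 at 8 h, with the 4 h and 8 h ranges overlapping. In Raji the range was 3.22 to 3.69 without inhibitor (median 3.47) and 3.13 to 3.82 with it (median 3.58), so the groups overlapped. TUFT1 sat between the 17.3 and 26.3 percentile of probe sets on the Raji arrays. Whether it stood above background there was not tested.

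FGD6 had the reverse starting point. In LP-1 it read 3.74 and 4.33 untreated, 4.36 and 3.75 with the inactive enantiomer at 4 h, and 3.93 and 3.46 with it at 8 h. The inhibitor arrays read 5.03 and 5.57 at 4 h and 6.64 and 6.39 at 8 h, above all 6 others and higher at 8 h than at 4 h. In Raji all 10 arrays lay between 7.39 and 7.94, with medians of 7.66 without inhibitor and 7.82 with it. The FGD6 level of LP-1 after 8 h of inhibitor therefore remained below the lowest Raji array.

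PAG1, the CSK adaptor, was the most unequal at the start. In LP-1 it read 3.41 and 3.52 untreated, 3.83 and 3.61 with the inactive enantiomer at 4 h, and 4.09 and 3.11 with it at 8 h. The inhibitor arrays read 4.96 and 5.02 at 4 h and 5.93 and 5.61 at 8 h. The 2 inactive enantiomer arrays at 8 h were the farthest apart of any pair for PAG1 (SD 0.69). Raji arrays read 7.68 to 7.98 without inhibitor and 7.70 to 7.90 with it, so those groups overlapped and lay above every LP-1 array.

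**Figure D1:**
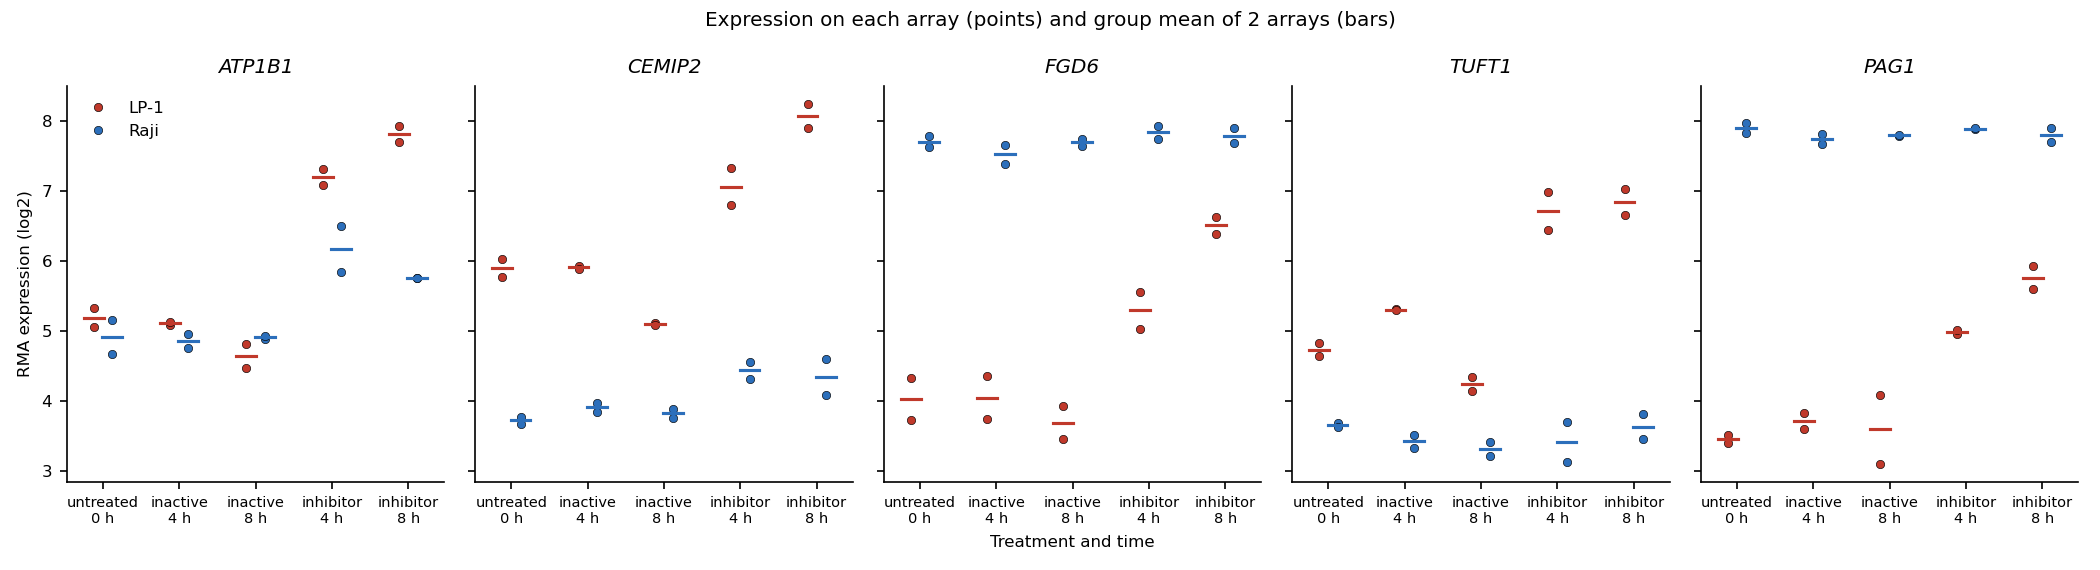
Expression (RMA log2 value, y axis) of the 5 genes on each of the 20 arrays by treatment and time (x axis), LP-1 in red and Raji in blue; points are arrays and bars are means of 2 arrays. ATP1B1 starts at overlapping levels, CEMIP2 and TUFT1 start higher in LP-1, FGD6 and PAG1 start higher in Raji, and within LP-1 all 5 are highest under the inhibitor.

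Ordered by level over the 10 groups, ATP1B1, CEMIP2 and TUFT1 had LP-1 with inhibitor at 8 h on top (7.82 ± 0.16, 8.08 ± 0.25 and 6.86 ± 0.26, mean ± SD, n = 2) and LP-1 with inhibitor at 4 h next (7.20 ± 0.16, 7.07 ± 0.37 and 6.72 ± 0.38). The ranges of these top 2 groups overlapped for TUFT1 and not for the others. For FGD6 and PAG1 the top 5 groups were those of Raji, followed by LP-1 with inhibitor at 8 h (6.52 ± 0.18 and 5.77 ± 0.23) and at 4 h (5.30 ± 0.38 and 4.99 ± 0.04), which did not overlap. The 3 LP-1 groups without inhibitor came last for both genes, and neighbours among them overlapped.

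The starting levels were compared between untreated LP-1 and untreated Raji. Of the 5 genes, 4 differed: CEMIP2 and TUFT1 were higher in LP-1, and FGD6 and PAG1 were lower. The background was high, since 24.3% of all probe sets differed between the lines in this comparison. CEMIP2 was 4.54-fold higher in LP-1 (log2 2.18 ± 0.20, limma adjusted p = 2.77e-06) and TUFT1 2.11-fold higher (1.08 ± 0.22, adjusted p = 0.00232). FGD6 was 12.7-fold lower in LP-1 (-3.67 ± 0.26, adjusted p = 2.05e-07) and PAG1 21.8-fold lower (-4.45 ± 0.23, adjusted p = 1.33e-08). ATP1B1 differed by 0.27 (95% interval -0.20 to 0.74, adjusted p = 0.46). The 4 calls held under every alternative that was run, each left-out array included. Each of the 4 differences has a low reading on 1 side. On arrays without inhibitor, CEMIP2 in Raji sat between the 23.9 and 28.8 percentile of probe sets, and TUFT1 there between 18.0 and 24.0. FGD6 in LP-1 sat between 21.1 and 32.4, and PAG1 there between 16.8 and 29.3. Whether these readings stood above background was not tested.

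At 8 h, the time used for the choice, the inhibitor arrays of LP-1 exceeded the inactive enantiomer arrays by 3.17 for ATP1B1, 2.97 for CEMIP2, 2.82 for FGD6, 2.61 for TUFT1 and 2.17 for PAG1 (log2). The same differences in Raji were 0.85, 0.51, 0.10, 0.32 and 0.00. Both inhibitor arrays lay above both control arrays for 5 of 5 genes in LP-1 (27.9% of all probe sets) and for ATP1B1, CEMIP2 and TUFT1 in Raji (20.3% of all probe sets). The response in LP-1 minus that in Raji was 2.72 for FGD6, 2.46 for CEMIP2, 2.32 for ATP1B1, 2.28 for TUFT1 and 2.16 for PAG1, which put them at ranks 5, 8, 12, 14 and 18 of 14232 genes. The rule states no cut, so the genes around them are given by rank. GPR50 (2.40, rank 9), OR2B2 (2.39, rank 10) and SMIM14 (2.18, rank 16), which were not chosen, also differed by over 2 in LP-1, with Raji differences of 0.07, 0.03 and 0.58. CLDN6 (2.75, rank 4) stood 2.13 higher in LP-1 and 0.61 lower in Raji. The next genes below PAG1 were ANKRD42 (2.10), TMEM185B (2.08), SCIMP (2.02), APOBR (1.95) and TCL1A (1.94). In these, lower values in Raji, by 0.55 to 2.18, made up part or all of the difference.

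For 4 of the 5 genes part of the 8 h difference in LP-1 lay in low control arrays. With the inactive enantiomer at 8 h, CEMIP2 stood 0.81 below untreated LP-1 cells, ATP1B1 0.55 below, TUFT1 0.49 below and FGD6 0.34 below, while PAG1 stood 0.14 above. Over all probe sets 0.504% were called between these LP-1 groups, with 0.459% lower and 0.0454% higher with the inactive enantiomer. Set against untreated cells instead, the inhibitor arrays at 8 h were higher by 2.62 for ATP1B1, 2.48 for FGD6, 2.30 for PAG1, 2.16 for CEMIP2 and 2.12 for TUFT1. The order of the 5 genes therefore differs between the 2 references, which share the inhibitor arrays.

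The 4 h arrays addressed whether the genes had already moved at the earlier time. In LP-1 all 5 genes rose at 4 h relative to the inactive enantiomer, where 0.377% of all probe sets were called higher. The median of the 5 was 1.27, beside -0.04 over all probe sets. ATP1B1 rose 4.25-fold (log2 2.09 ± 0.22, limma adjusted p = 0.000549) and TUFT1 2.66-fold (1.41 ± 0.22, adjusted p = 0.00612). PAG1 rose by 1.27 ± 0.23 (adjusted p = 0.0145), FGD6 by 1.24 ± 0.26 (adjusted p = 0.0248) and CEMIP2 by 1.16 ± 0.20 (adjusted p = 0.0104). Both inhibitor arrays lay above both control arrays for each gene, as they did for 17.6% of all probe sets.

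ATP1B1 kept its call at 4 h in LP-1 under every alternative (highest adjusted p 0.0149), and the other 4 did not. Without either array of the inactive enantiomer, ATP1B1 was the 1 gene of 5 still called, with TUFT1 at adjusted p = 0.0644 and 0.0679 and the highest value in FGD6 (adjusted p = 0.261). Without inhibitor replicate 1 PAG1 lost its call (adjusted p = 0.0802), and without inhibitor replicate 2 FGD6 did (adjusted p = 0.0916). On the 12 arrays at 0 and 4 h alone 4 of 5 were called, FGD6 missing at adjusted p = 0.079, and on the 10 LP-1 arrays alone 1 of 5 was.

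In Raji at 4 h, ATP1B1 rose 2.49-fold (log2 1.32 ± 0.22, limma adjusted p = 0.0112), and the other 4 genes did not pass, where 1.44% of all probe sets were called higher. CEMIP2 changed by 0.53 (95% interval 0.10 to 0.96, adjusted p = 0.24), FGD6 by 0.31 (-0.24 to 0.87), PAG1 by 0.14 (-0.36 to 0.65) and TUFT1 by -0.01 (-0.48 to 0.47). The median of the 5 was 0.31, beside 0.01 over all probe sets. Both inhibitor arrays lay above both control arrays for all but TUFT1, as for 23.5% of all probe sets. The rise of ATP1B1 in Raji lost its call without inhibitor replicate 2 (1.00, adjusted p = 0.127), without inactive enantiomer replicate 1 (1.22, adjusted p = 0.078), on the 12 arrays at 0 and 4 h (adjusted p = 0.054) and on the 10 Raji arrays (adjusted p = 0.0748).

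**Figure D2:**
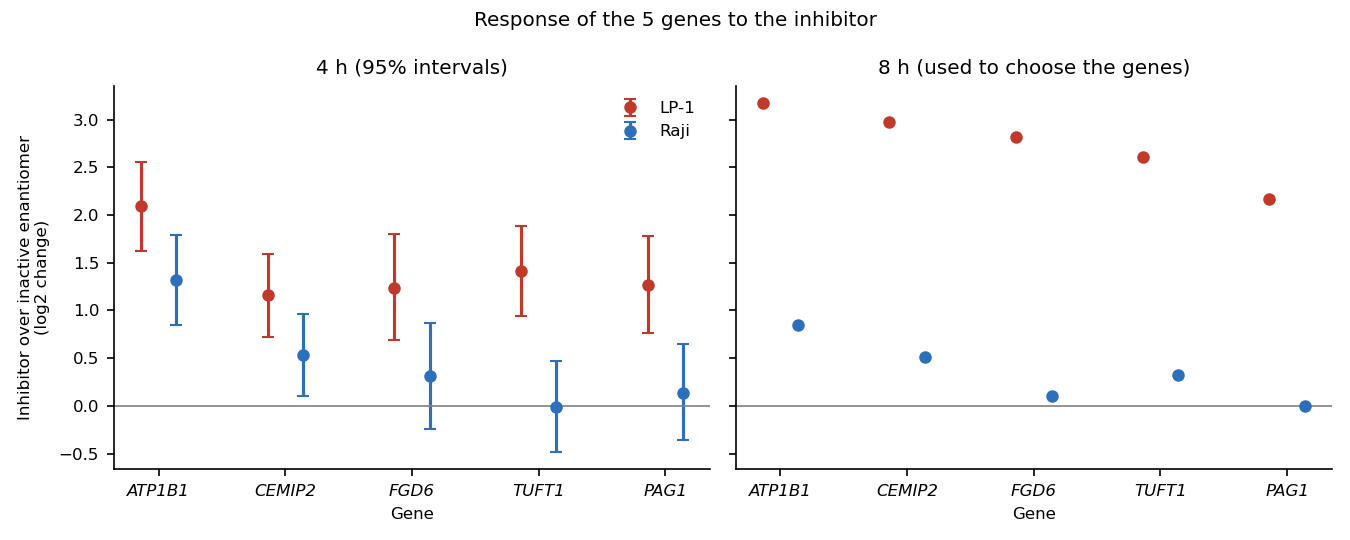
Log2 change of inhibitor over inactive enantiomer (y axis) for each gene (x axis) in LP-1 (red) and Raji (blue) at 4 h with 95% limma intervals (left) and at 8 h without intervals, since those values chose the genes (right). At 4 h the LP-1 values run from 1.16 to 2.09 and the Raji values from -0.01 to 1.32, and the intervals of both lines overlap for ATP1B1, CEMIP2, FGD6.

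The difference between the lines was then tested directly at 4 h. None of the 5 genes passed after adjustment, in a comparison where 0.114% of all probe sets did. The response in LP-1 exceeded that in Raji by 1.42 ± 0.31 for TUFT1 (95% interval 0.75 to 2.09, limma adjusted p = 0.0893) and by 1.13 ± 0.33 for PAG1 (0.41 to 1.85, adjusted p = 0.159). The excess was 0.93 for FGD6 (0.14 to 1.72, adjusted p = 0.261), 0.77 for ATP1B1 (0.10 to 1.43, adjusted p = 0.27) and 0.63 for CEMIP2 (0.01 to 1.24, adjusted p = 0.321). All 5 differences had the same sign and an unadjusted p under 0.05, which 3353 of 22011 probe sets also had. A larger response in LP-1 at 4 h was thus not shown for any of the 5 genes over the whole table.

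**Figure D3:**
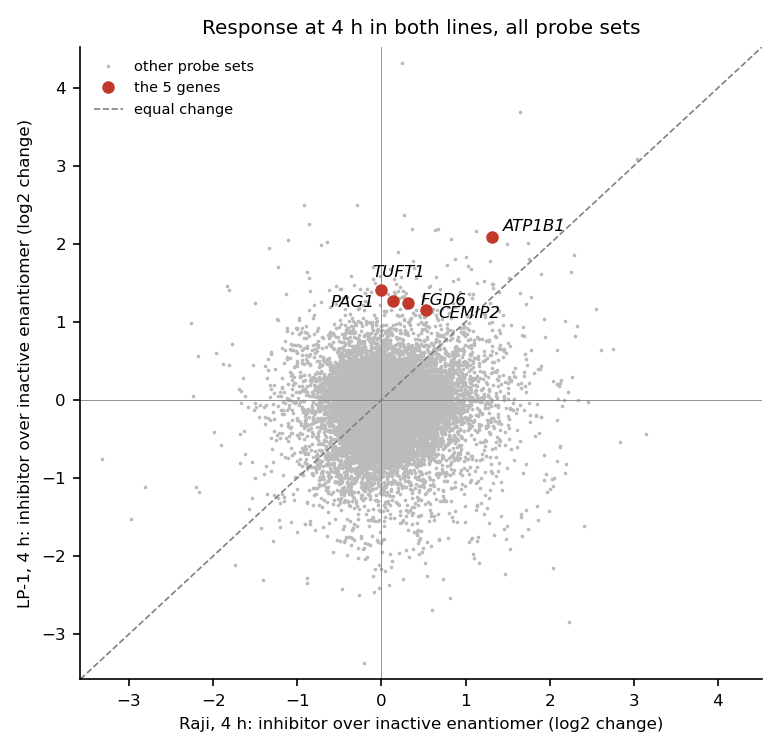
Log2 change of inhibitor over inactive enantiomer at 4 h in Raji (x axis) and LP-1 (y axis) for all probe sets (grey) and the 5 genes (red), with the line of equal change dashed. All 5 genes lie above the dashed line, with ATP1B1 at 1.32 and 2.09 and the other 4 between -0.01 and 0.53 in Raji.

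From 4 to 8 h the response in LP-1 grew by 1.82 for CEMIP2, 1.58 for FGD6, 1.19 for TUFT1, 1.08 for ATP1B1 and 0.90 for PAG1 (log2, given without a test because the 8 h values chose the genes). In Raji the same differences were -0.02, -0.22, 0.33, -0.47 and -0.14. For TUFT1 the inhibitor level itself barely moved between 4 and 8 h in LP-1 (6.72 and 6.86), and its control fell from 5.31 to 4.25. For FGD6 and PAG1 the inhibitor level climbed from 5.30 to 6.52 and from 4.99 to 5.77.

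The inactive enantiomer at 4 h was compared with untreated cells as a check of the control compound. By limma 0 of 5 genes passed in LP-1 and 0 of 5 in Raji, where 0.0136% and 0% of all probe sets did. At an unadjusted p under 0.05 there was 1 of the 5 in LP-1, TUFT1 at 0.57 (95% interval 0.10 to 1.05, adjusted p = 0.926), and 0 in Raji, against 1089 and 1741 of all probe sets. The other 4 genes differed by -0.08 to 0.25 in LP-1, and all 5 by -0.24 to 0.19 in Raji. Against untreated cells, 4 h of inhibitor gave rises in LP-1 for all 5 genes (0.727% of probe sets were called higher), from 1.16 for CEMIP2 to 2.01 for ATP1B1, and in Raji for ATP1B1 alone (1.25, adjusted p = 0.0182, 0.663% of probe sets called higher).

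Genes with roles close to those of the 5 were then examined through 5 lists holding 93 measured genes, none of them a member. In LP-1 at 8 h, 3 of the 93 rose, 1 fell and 89 did not pass (4.3% called, beside 5.73% of all probe sets), and at 4 h none rose and 2 fell (2.15%, beside 2.28%). In Raji 2 rose and 1 fell at 4 h (3.23%, beside 1.78%), and none rose and 5 fell at 8 h (5.38%, beside 1.88%). No test compared these shares with the background. For the lists and neighbours below, counts at an unadjusted p under 0.05 have no share over all probe sets beside them. They are therefore not read as a result about those genes. After quantile normalization 8 of 93 were called in LP-1 at 8 h. Single arrays decided several of these counts. In LP-1 at 4 h 0 of 93 were called without inhibitor replicate 1 or without either control array, and at 8 h 2 were called without inhibitor replicate 2 or control replicate 1. In Raji at 4 h 0 were called without inhibitor replicate 2 and 1 without inhibitor replicate 1 or control replicate 1, and at 8 h 1 was called without inhibitor replicate 1 and 2 without either control array.

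Of 17 measured genes of the sodium pump and its relatives, 0 passed by limma in any of the 4 comparisons, and at most 1 had an unadjusted p under 0.05 in each. The median was 0.02 in LP-1 at 8 h, beside 0.06 over all probe sets. ATP1B3, another beta subunit gene, read 7.65 and 8.31 with the inactive enantiomer and 7.80 and 8.36 with the inhibitor in LP-1 at 8 h, a change of 0.10 (95% interval -0.42 to 0.62). ATP1B2, a further beta subunit gene, changed by 0.09 (-0.37 to 0.56). Neither passed beside the large change of ATP1B1, and the genes of the alpha subunits, read by no probe set with a single symbol, were not analysed here.

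Of 16 measured genes of hyaluronan metabolism, 0 passed by limma in any of the 4 comparisons, with 1 or 2 at an unadjusted p under 0.05 in each. CEMIP, the closest relative of CEMIP2, changed by 0.21 in LP-1 at 8 h (95% interval -0.07 to 0.50). CD44, the main hyaluronan receptor of leukocytes, changed by -0.03 (-0.44 to 0.39). Its level in untreated LP-1 was 4.63 ± 0.19 above that in untreated Raji on the log2 scale, so both CEMIP2 and CD44 were higher in LP-1 before treatment.

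Among 27 measured genes of the FGD family and of CDC42 signalling, WASL, an activator of actin branching, rose in LP-1 at 8 h (0.65 ± 0.11, limma adjusted p = 0.00658) and 26 did not pass. WASL lost its call without control replicate 1 (adjusted p = 0.0576) and on the 10 LP-1 arrays (adjusted p = 0.062). In Raji at 8 h DOCK10 (-1.37 ± 0.22, adjusted p = 0.00971) and DOCK8 (-0.79 ± 0.17, adjusted p = 0.0383), both CDC42 exchange factors, fell. DOCK10 lost its call in 3 of 10 alternatives (adjusted p up to 0.085), without inhibitor replicate 1 or control replicate 1 among them. DOCK8 lost its call in 4 of 10 (up to 0.242), without inhibitor replicate 1 or either control array among them. None of the 27 passed at 4 h in either line, with 2 in LP-1 and 5 in Raji at an unadjusted p under 0.05. At 8 h 7 in LP-1 and 4 in Raji had such a p. The other FGD genes changed little in LP-1 at 8 h, FGD1 by -0.01, FGD2 by 0.33, FGD3 by 0.24, FGD4 by -0.02 and FGD5 by 0.01, and CDC42 itself by -0.02.

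The list around PAG1 holds CSK, the SRC family and other membrane adaptors, with 25 genes measured. At an unadjusted p under 0.05 by limma there were 4 of 25 at 4 h and 9 at 8 h in LP-1, and 9 and 14 in Raji. The share of all probe sets at that p was not taken for these comparisons. In LP-1 at 8 h PTPN12, a tyrosine phosphatase that binds CSK, rose (1.29 ± 0.30, limma adjusted p = 0.0253), as did EZR, which ties membrane proteins to actin (0.68 ± 0.13, adjusted p = 0.0118). PTPN12 lost its call in 4 of 10 alternatives (adjusted p up to 0.166), without either inhibitor array or control replicate 1 among them, and EZR in 3 of 10 (up to 0.1), without inhibitor replicate 2 or control replicate 1 among them. PTPN12 differed in Raji by 0.96 at 4 h and 1.07 at 8 h without passing, and its response at 8 h differed between the lines by 0.22 (95% interval -0.70 to 1.14). TRAT1, another membrane adaptor, fell at 4 h (-0.95 ± 0.22, adjusted p = 0.0423) and 8 h (-1.44 ± 0.22, adjusted p = 0.00282), and the adaptor LAX1 fell at 4 h (-1.35 ± 0.27, adjusted p = 0.0216). Both 4 h calls were lost without inhibitor replicate 1 or either control array. TRAT1 at 4 h lost its call in 7 of 10 alternatives (adjusted p up to 0.252), quantile normalization and median centring among them, and LAX1 in 4 of 11 (up to 0.179). The fall of TRAT1 at 8 h kept its call in 9 of 9. CSK changed by -0.43 (95% interval -0.69 to -0.16, adjusted p = 0.0633) and LYN by 0.57 (0.16 to 0.97, adjusted p = 0.109) in LP-1 at 8 h, and neither passed. The 8 h changes in Raji were -0.50 (-0.77 to -0.23, adjusted p = 0.063) for CSK and 0.15 (-0.26 to 0.56) for LYN, which did not pass either. In Raji, where PAG1 stayed level, the adaptor SCIMP fell at 4 h (-1.28 ± 0.27, adjusted p = 0.0362) and 8 h (-2.18 ± 0.27, adjusted p = 0.00263). FGR, a SRC family kinase (-1.21 ± 0.22, adjusted p = 0.0162), and PTPN6, the phosphatase SHP-1 (-0.71 ± 0.12, adjusted p = 0.0119), fell in Raji at 8 h. SCIMP kept its call at 8 h in 9 of 9 alternatives and lost its 4 h call in 5 of 10 (adjusted p up to 0.255), without either inhibitor array or control replicate 1 and with the replicate block (adjusted p = 0.0534) among them. FGR lost its call in 3 of 10 (up to 0.125), all single arrays left out (either inhibitor array or control replicate 2). PTPN6 lost its call in 4 of 10 (up to 0.0985), without inhibitor replicate 1 or either control array among them.

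Of 8 measured genes of enamel proteins, 0 passed in LP-1 by limma at either time (0 and 2 at an unadjusted p under 0.05, beside 2 and 1 in Raji). In Raji at 4 h AMBN rose by 1.88 ± 0.34 (adjusted p = 0.0149) and ENAM by 1.20 ± 0.16 (adjusted p = 0.00399), both genes of enamel matrix proteins. AMBN lost its call whichever of the 4 compared arrays was left out and on the 12 arrays at 0 and 4 h (adjusted p up to 0.111), and ENAM lost its call without inhibitor replicate 2 (0.0532) and on the 10 Raji arrays (0.0594). ENAM read 4.91 and 4.90 with the inactive enantiomer and 6.13 and 6.07 with the inhibitor in Raji at 4 h. In the same comparison TUFT1 read 3.52 and 3.34, and 3.70 and 3.13, so the enamel genes that rose in Raji did so where TUFT1 did not pass.

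The nearest measured protein-coding genes on the chromosome, 2 on each side of each of the 5, gave 20 neighbours in the RefSeq order. In LP-1 at 8 h 1 of 20 rose, ZBTB10 beside PAG1 (0.61 ± 0.11, limma adjusted p = 0.00848), and the 20 ranged from -0.37 to 0.61, where 5.73% of all probe sets were called. At 4 h 1 of 20 fell, BLZF1 beside ATP1B1 (-1.32 ± 0.28, adjusted p = 0.0257), while ATP1B1 rose, where 2.28% of all probe sets were called. The 2 inhibitor arrays of BLZF1 were far apart (4.15 and 5.12, against 5.96 and 5.95 on the control arrays). BLZF1 lost its call without inhibitor replicate 1 or either control array, and ZBTB10 lost its call without control replicate 1, leaving 0 of 20 each time. In Raji 0 of 20 passed by limma at either time. At an unadjusted p under 0.05 there were 2 of 20 at 4 h and 5 at 8 h in LP-1, and 2 at each time in Raji. The median of the 20 was 0.05 in LP-1 at 8 h, beside 0.06 over all probe sets.

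**Figure D4:**
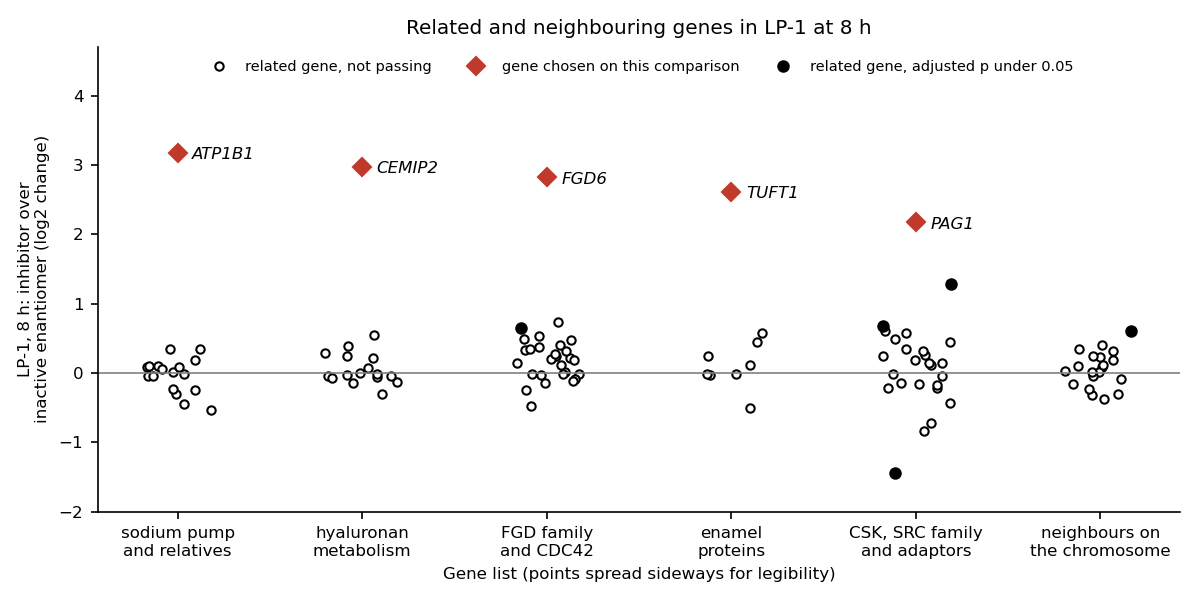
Log2 change of inhibitor over inactive enantiomer in LP-1 at 8 h (y axis) for the genes of 5 related lists and the 20 chromosomal neighbours (x axis); open points did not pass, filled points had an adjusted p under 0.05, and red diamonds are the 5 genes, chosen on this comparison. The 5 genes lie between 2.17 and 3.17, and the related gene with the largest called rise, PTPN12, lies at 1.29.

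Likeness of pattern was measured as Pearson's r over the 20 arrays after subtracting each line's untreated mean, so that the starting level does not count. These arrays include those used for the choice, and r is a description. Among the 5 genes r ran from 0.788 (CEMIP2 with PAG1) to 0.948 (FGD6 with PAG1), and ATP1B1 and CEMIP2 formed the other close pair (0.941). Over all measured genes the nearest to ATP1B1 were SAT1, an enzyme of polyamine breakdown (0.963), the histone gene H2AC11 (0.958) and the deacetylase gene SIRT1 (0.947). The nearest to CEMIP2 were ATP1B1, ZCCHC14 (0.918) and SMIM14 (0.916), and the nearest to FGD6 were PAG1, the kinase gene TAOK3 (0.910) and TNFRSF10D, a decoy receptor of the death ligand TRAIL (0.908). The nearest to TUFT1 were TRIM36 (0.933), PAG1 (0.908) and TNFRSF10D (0.906), and the nearest to PAG1 were FGD6, the orphan receptor gene GPR50 (0.921) and the transcription factor gene ETV5 (0.917).

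The genes most like the mean of the 5 were TNFRSF10D (0.955), GPR50 (0.928), H2AC11 (0.925), the phosphatase subunit gene PPP2R3A (0.914) and TRIM36 (0.913). TNFRSF10D changed less than the 5 in LP-1, by 0.66 at 4 h and 1.09 at 8 h, with 0.14 and 0.06 for Raji. The LP-1 changes of GPR50 were 2.37 and 2.47, and those in Raji 0.27 and 0.07. For H2AC11 they were 2.18 and 2.66, with 0.64 and 1.01 for Raji, which is nearer to ATP1B1 than to the other 4.

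**Figure D5:**
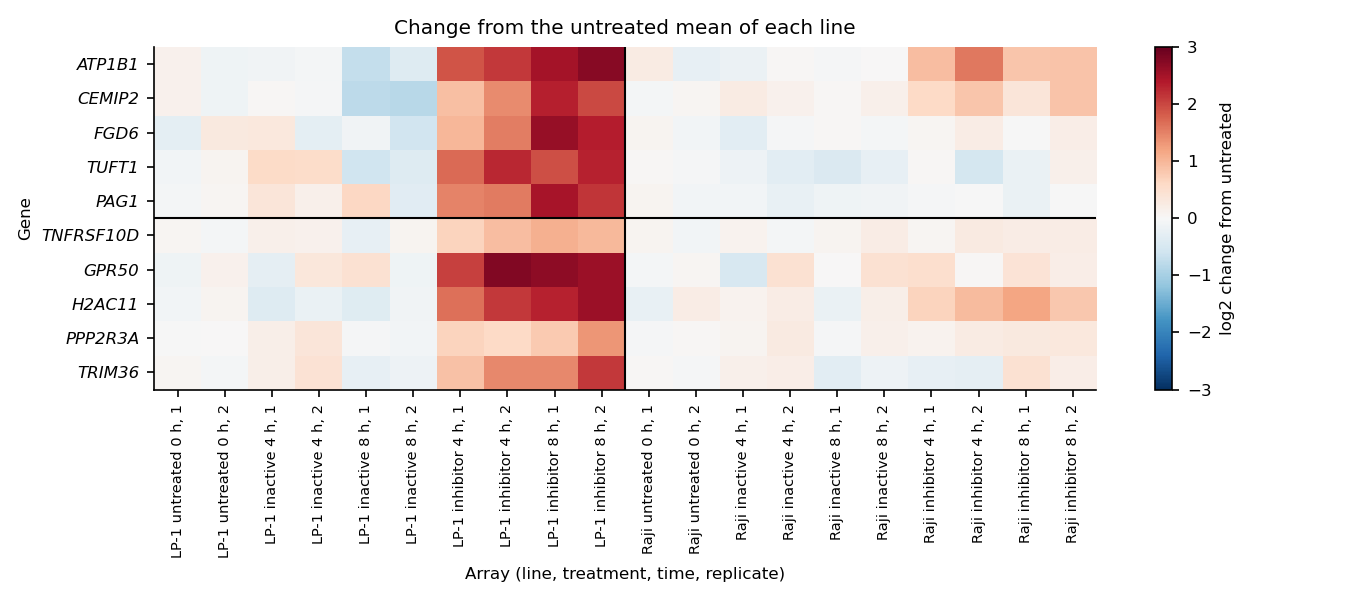
Log2 change from the untreated mean of the line (colour) for the 5 genes (above the line) and the 5 genes most like their mean (below it) on each of the 20 arrays (x axis: line, treatment, time and replicate). The red block covers the 4 LP-1 inhibitor arrays for all 10 genes, and on the Raji inhibitor arrays ATP1B1 and H2AC11 are shaded a deeper red than every other gene shown except CEMIP2.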

How the data were processed

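Total RNA from LP-1 and Raji cells was hybridised to Affymetrix exon arrays after amplification and biotin labelling. Per the submitters' processing notes, the authors made the deposited log2 values per probe set with RMA in Affymetrix Expression Console on build hg19, with no versions given. RMA quantile-normalises probes, so changes shared by most genes are removed. The values were used as deposited. Of 22011 probe sets, 14432 had 1 symbol, 2408 several and 5171 none, and 14404 of the first matched RefSeq (GRCh38.p14) by Entrez identifier. That annotation gave names and gene order.

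limma 3.58.1 in R 4.3.3 fitted 1 mean per group to all 20 arrays (10 residual degrees of freedom), with two-sided tests adjusted by Benjamini and Hochberg's method across the whole table. Its p-values rest on the spread within pairs of biological replicates, pooled over the 10 groups. The number of arrays limits the precision. The 5 genes and the gene lists were chosen with earlier results of these data known.

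Named are the 5 genes, MYC and HEXIM1, the closest relatives, called genes of the related lists, called neighbours, the 3 genes most like each gene and the 5 most like their mean, and the genes around them by rank. CLDN6 and the genes ranked among the 5, CDC42 and ATP1B2 were picked after their values were seen. Alternatives were a filter on dim probe sets, quantile normalization, median centring, a trended robust variance, a replicate block, fewer arrays and each array left out.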

Additional observations from a re-analysis of the deposited data

Results flagged for a closer look

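ENAM, which encodes an enamel matrix protein, was picked up because its response at 4 h differed between the lines by a test of the difference itself: the response in LP-1 minus that in Raji was -1.37 (limma adjusted p = 0.0454). It read 4.61 and 4.76 with the inactive enantiomer and 4.52 and 4.53 with the inhibitor in LP-1, against 4.91 and 4.90 and then 6.13 and 6.07 in Raji. The difference lost its call in 11 of 14 alternatives, with adjusted p up to 0.173.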

How the results depend on the processing

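Leaving out each compared array in turn at 4 h left 1 to 4 of the 5 genes called for LP-1, and 0 to 1 for Raji. For related genes it gave 0 to 2 and 2 to 4 in LP-1 at 4 and 8 h, and 0 to 2 and 1 to 4 in Raji. For neighbours it gave 0 to 1 in LP-1 at each time. Fitted on the line's 10 arrays, 1 of the 5 genes passed in LP-1 and 0 in Raji at 4 h, 0 and 1 related genes in LP-1 at 4 and 8 h, 1 and 2 in Raji, and 0 neighbours in LP-1. On the 12 arrays at 0 and 4 h, 0 of the 5 passed in Raji, and 1 related gene and 0 neighbours in LP-1 at 4 h. Quantile normalization gave 1 and 8 related genes in LP-1 at 4 and 8 h, 2 neighbours in LP-1 and 1 in Raji at 8 h. Median centring gave 1 related gene in LP-1 at 4 h, and the filter 1 in each line at 4 h. No called value reversed.

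The replicate block left 5 of the 5 genes called in LP-1 and 1 in Raji at 4 h, and 4 between the untreated lines. Deviations of same-numbered arrays from their group means correlated at -0.035 to 0.121 in LP-1 and -0.16 to 0.051 in Raji. With 2 arrays a group, these low values cannot exclude that same-numbered arrays were handled together. Among the related genes SCIMP in Raji at 4 h and the ENAM line difference at 4 h lost their calls with the block (adjusted p of 0.0534 and 0.0643). No other probe set with 1 symbol exists for the 5 genes in the platform's table, so that alternative was not run. FGD6 has a further probe set that it shares with NR2C1, which was not used. With 2 arrays a group, the line difference of TUFT1 at 4 h (1.42 ± 0.31) did not pass over all probe sets. That of ENAM (-1.37 ± 0.23) was smaller in size with a smaller SE, and it passed in the main fit.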
